A study of Homo sapiens with 12 samples.

Results

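The comparison described here asks what STING siRNA changed in human fibroblasts that had also lost most of their YAP1 and TAZ transcripts. It rests on 4 of the 12 libraries of the series, 2 of the STING_YT group against 2 of the YT group, chosen by their labels and not by any measured value, and it covers 13894 tested genes of the 13937 in the deposited table. The cells are WI-38, human fetal lung fibroblasts. STING_YT cells (libraries 15 and 16) received STING siRNA together with siRNAs against YAP and TAZ, and YT cells (libraries 3 and 4) received a control siRNA, named siAS, in place of the STING siRNA. STING cells (13 and 14) received STING siRNA and the control siRNA, control cells (1 and 2) the control siRNA only, and cGAS_YT cells (9 and 10) cGAS siRNA with the YAP and TAZ siRNAs. The remaining group, cGAS cells (7 and 8), received cGAS siRNA and the control siRNA. It is not compared here and enters only the fit over all 12 libraries. So the STING_YT, YT and cGAS_YT cells all carry the YAP and TAZ siRNAs. The titles mark the STING and cGAS siRNAs with 4x and the others not, and do not explain the mark. No label gives the siRNA sequences, their doses or the time between transfection and harvest. Whether the 2 libraries of a group are from separate cultures is not stated in the labels, so the p-values reflect only how far these libraries spread, which may be technical.

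YAP and TAZ (the product of WWTR1) are co-activators of the TEAD transcription factors and are held in check by the Hippo kinases. In stromal cells they drive cytoskeletal, matrix and proliferation genes. The enzyme cGAS detects DNA in the cytosol and makes the messenger cGAMP, which binds STING on the endoplasmic reticulum; STING then recruits the kinase TBK1, which activates IRF3 for interferon genes, and also activates NF-kB for cytokine and chemokine genes. Senescent and damaged fibroblasts use the same route to turn on a secretory programme of interleukins, chemokines and growth factors.

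Library depth lay between 17790774 and 20650727 reads, and the 2 STING_YT libraries held 17790774 and 19302847 reads, against 19030683 and 19674625 in the YT libraries. At this depth 3 reads are worth 0.142 to 0.170 CPM (reads scaled to library size with TMM factors), which covers counting error only. The STING_YT libraries were close, with 25 genes differing more than 2-fold, whereas 249 genes differed more than 2-fold between YT 3 and YT 4. YT 3 was the higher of the pair for several chemokines, so YT values are given per library throughout. All 12 fibroblast markers were tested, and their summed level was 37042 and 34424 CPM in STING_YT cells, against 29131 and 27235 CPM in YT cells; of 24 markers of other cell types 6 passed the filter, with summed levels of 44.8 and 40.8 CPM in STING_YT cells, against 36.3 and 41.9 CPM in YT cells. Transcripts of the mitochondrial genome summed to 31803 and 30471 CPM in STING_YT cells, against 22404 and 18526 CPM in YT cells, and the part of this shift in the results below was not tested.

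The siRNAs had lowered their targets. The STING gene, listed under its older symbol TMEM173 (chr5:139475534-139482935, GRCh38), measured 1.28 and 1.93 CPM in STING_YT cells, against 18.1 and 19.2 CPM in YT cells, and 1.79 and 1.77 CPM in STING cells, against 24.5 and 23.6 CPM in control cells. STING_YT cells thus kept 8.61% of the YT level, a log2 change of -2.93 ± 0.16 (SE, limma adjusted p = 2.2e-09), and the change did not differ detectably from the one without YAP and TAZ siRNAs (difference 0.25 ± 0.23, adjusted p = 0.59). YAP1 was at 12.6 and 16.1 CPM in STING_YT cells, against 16.3 and 13.02 CPM in YT cells and 114 and 105 CPM in control cells, with no call between STING_YT and YT (adjusted p = 0.88). WWTR1, which encodes TAZ, measured 12.7 and 11.4 CPM in STING_YT cells, against 22.8 and 16.7 CPM in YT cells and 133 and 144 CPM in control cells. WWTR1 was therefore lower still in STING_YT than in YT cells (log2 change -0.65 ± 0.12, adjusted p = 0.00063), and the part of this difference in the results was not tested. The cGAS gene, listed as MB21D1, was at 4.89 and 4.78 CPM in STING_YT cells, against 7.66 and 6.07 CPM in YT cells, and was not called (log2 change -0.42 ± 0.22, adjusted p = 0.14).

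Across all genes tested, 2229 were higher in STING_YT than in YT cells (16%) and 2502 were lower (18.0%), by limma on log2(CPM + 1) with a Benjamini-Hochberg adjusted p under 0.05. The higher count was 1300 without STING_YT 15, 1427 without STING_YT 16 and 1378 when only these 4 libraries were fitted. At least 2-fold changes were seen for 356 raised genes (2.56%) and 493 lowered genes (3.55%). The lowered side went further: the 15 most lowered genes fell by 3.24 to 6.55 on the log2 scale, while the 15 most raised genes rose by 2.05 to 3.53. Of these 15 most lowered genes, 5 were also called lower in STING against control cells, against 8.86% of all genes. Of the 15 most raised, 10 were also called higher there, against 6.14% of all genes. In cGAS_YT against YT cells, which share the YT libraries, all 15 most lowered and all 15 most raised genes were called in the same direction. There 2848 of 13894 genes were higher and 2808 lower. Counts of list members called in STING_YT against YT cells below are to be read beside the 16% higher and 18.0% lower of all genes. In bulk RNA, fewer cells of a type and less RNA per cell cannot be told apart.

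Neutrophil-attracting chemokines led the lowered genes. CXCL8 (interleukin 8, chr4:73740506-73743716) measured 1.67 and 2.08 CPM in STING_YT cells, against 493 and 146 CPM in YT cells, 1.05 and 1.07 CPM in STING cells and 0.727 and 1.65 CPM in control cells. Every YT library stood far above every other library of these 4 groups, and STING_YT cells held 0.587% of the YT mean (log2 change -6.55 ± 0.40, adjusted p = 4.3e-09). Since YT 3 was more than 3 times as high as YT 4, the log2 change was -5.68 without YT 3 and -7.43 without YT 4. CXCL1, which signals through the same receptor, CXCR2, measured 6.66 and 9.81 CPM in STING_YT cells, against 496 and 292 CPM in YT cells (log2 change -5.39 ± 0.40, adjusted p = 3.7e-08). CXCL5 measured 1.999 and 3.71 CPM in STING_YT cells, against 61.1 and 46.6 CPM in YT cells (log2 change -3.85 ± 0.26, adjusted p = 1.3e-08). For each of the 3 genes the STING_YT and YT libraries did not overlap, which held for 32.2% of all genes in the lower and 32.1% in the higher direction.

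Promoter sequences of these chemokines are printed because NF-kB is the factor best known for inducing them. Each line gives the 150 bases just before the RefSeq transcription start on GRCh38.p14, 5′ to 3′, with the motif GGNNTTTCC in capitals, a shortened form of the NF-kB consensus that was searched on both strands. The windows are chr4:73740419-73740568, plus strand for CXCL8, chr4:73869243-73869392, plus strand for CXCL1 and chr4:73998678-73998827, minus strand for CXCL5.
CXCL8: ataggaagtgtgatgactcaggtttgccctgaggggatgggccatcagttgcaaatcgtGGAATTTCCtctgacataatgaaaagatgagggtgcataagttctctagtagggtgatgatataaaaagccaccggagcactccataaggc
CXCL1: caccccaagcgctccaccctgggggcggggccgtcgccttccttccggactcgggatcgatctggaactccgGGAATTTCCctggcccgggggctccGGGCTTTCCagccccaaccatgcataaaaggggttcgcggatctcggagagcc
CXCL5: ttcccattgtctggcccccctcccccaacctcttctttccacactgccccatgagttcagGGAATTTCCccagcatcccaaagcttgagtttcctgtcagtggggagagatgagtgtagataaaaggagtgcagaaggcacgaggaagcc
The motif began 91 bases before the start in CXCL8, 78 and 53 bases before it in CXCL1 and 90 bases before it in CXCL5. In windows of 250 bases before to 50 after the start, it occurred in 13.2% of 356 promoters of genes lowered at least 2-fold, in 3.93% of 229 promoters of genes raised at least 2-fold and in 6.69% of 9721 promoters of tested genes. Among 15 promoters of genes lowered at least 8-fold it occurred in 6. These include CXCL8, CXCL1, CXCL5 and CXCL3, related genes on chromosome 4, so the 6 are not independent. The windows of CXCL1 and CXCL3 are near-identical. The motif TGANTCA for AP-1 occurred in 9.27% of promoters of the genes lowered at least 2-fold, 4.80% of those raised at least 2-fold and 4.49% of tested genes. TATAAA, for the TATA box, occurred in 12.6%, 5.68% and 5.41% of the same sets. Among the 15 promoters of genes lowered at least 8-fold, AP-1 occurred in 3 and the TATA box in 5. A higher share among lowered genes was thus not particular to the NF-kB motif. These matches describe letters in the windows and not bound sites.

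Of 13 CXC and CC chemokines tested, 9 fell and 1 rose, with a median log2 change of -2.54 against 0.01 over all genes. CXCL2, CXCL3, CXCL6, CXCL10, CXCL11 and CCL2, the monocyte attractant, were among those that fell. Reads of CXCL1, CXCL2 and CXCL3 may be split uncertainly between these close paralogues. CXCL12, a homeostatic chemokine of stromal cells, was the member that rose, at 4.16 and 4.27 CPM in STING_YT cells, against 1.22 and 1.18 CPM in YT cells (log2 change 1.25 ± 0.22, adjusted p = 0.00045). CXCL16, CX3CL1 and CCL5 did not pass the test.

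Interleukins of the same programme fell with the chemokines. IL1B measured 1.89 and 2.03 CPM in STING_YT cells, against 90.7 and 58.5 CPM in YT cells (log2 change -4.64 ± 0.28, adjusted p = 4.8e-09). IL1A, known as an upstream cytokine of the secretory programme in senescent fibroblasts, measured 1.67 and 2.95 CPM in STING_YT cells, against 58.1 and 46.9 CPM in YT cells (log2 change -4.04 ± 0.24, adjusted p = 4.2e-09). IL24, a cytokine of the interleukin 10 family, was at 2.55 and 3.15 CPM in STING_YT cells, against 112 and 112 CPM in YT cells (log2 change -4.88 ± 0.25, adjusted p = 9.3e-10). All 3 were low in the other groups; IL1B, for example, measured 0.4201 and 0.322 CPM in STING cells and 1.25 and 0.227 CPM in control cells. IL6 behaved differently, with 2.33 and 1.63 CPM in STING_YT cells, against 11.3 and 0.926 CPM in YT cells, groups that overlap, and it was not called (adjusted p = 0.32); without YT 4 it was called lower (log2 change -2.05), and without YT 3 its log2 change was 0.62.

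Of 22 cytokines and inflammatory mediators tested, 16 fell and 2 rose, with a median log2 change of -1.84. PTGS2, the inducible cyclooxygenase that makes prostaglandins, measured 34.98 and 61.1 CPM in STING_YT cells, against 749 and 539 CPM in YT cells (log2 change -3.75 ± 0.23, adjusted p = 5.4e-09). SOD2, the mitochondrial superoxide dismutase induced by NF-kB, measured 59.5 and 68.5 CPM in STING_YT cells, against 739.7 and 547 CPM in YT cells (log2 change -3.295 ± 0.15, adjusted p = 3.2e-10). The adhesion molecules ICAM1 and VCAM1 changed by -1.81 and -1.79 on the log2 scale. The receptor subunit IL4R fell with them, at 81.9 and 86.99 CPM in STING_YT cells, against 278 and 349 CPM in YT cells (log2 change -1.87 ± 0.10, adjusted p = 1.5e-09). Those that rose were CSF1, the macrophage growth factor (log2 change 0.64 ± 0.17, adjusted p = 0.0071), and IL15 (log2 change 0.68 ± 0.21, adjusted p = 0.018). No member of the list rose without YT 4, without STING_YT 16 or when only the STING_YT and YT libraries were fitted.

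**Figure D1:**
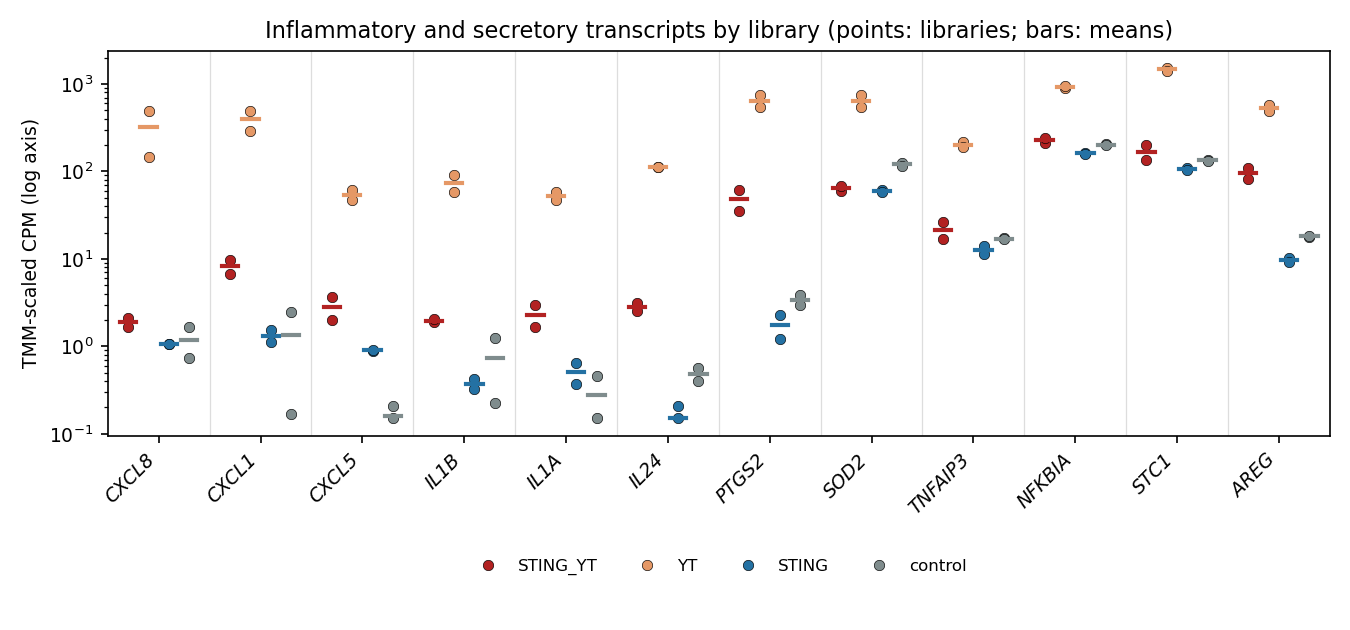
TMM-scaled CPM (log axis) of 12 inflammatory and secretory genes in each library of the STING_YT, YT, STING and control groups, with points for libraries and short bars for means of 2; values below 0.15 CPM are drawn at 0.15. The YT libraries are the highest for each of the 12 genes, while STING_YT libraries lie near the STING and control libraries for CXCL8 and NFKBIA and clearly above them for PTGS2 and AREG.

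Genes of the NF-kB pathway itself were mostly lower. Of 19 tested, 16 fell and none rose (18 fell and 1 rose without YT 3; median log2 change -1.10). The feedback inhibitor NFKBIA (IkB alpha) measured 211 and 243 CPM in STING_YT cells, against 897 and 960.4 CPM in YT cells and 203 and 199 CPM in control cells (log2 change -2.03 ± 0.09, adjusted p = 3.2e-10). TNFAIP3 (A20), a ubiquitin-editing enzyme that ends NF-kB signalling, measured 16.8 and 26.4 CPM in STING_YT cells, against 215 and 188 CPM in YT cells (log2 change -3.19 ± 0.18, adjusted p = 2.8e-09). Of the subunits, NFKB1 measured 38.9 and 42.4 CPM in STING_YT cells, against 163 and 147 CPM in YT cells (log2 change -1.91 ± 0.11, adjusted p = 2.1e-09), and NFKB2, RELB and REL were also lower. RELA, the main activating subunit, and the kinase genes IKBKB and CHUK did not pass the test, with log2 changes of -0.18, -0.27 and -0.05. For 11 of the 19 genes the change was more negative than in cells without YAP and TAZ siRNAs by the test of the difference, where 4.53% of all genes had such a call.

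Secreted growth factors and proteases followed, with 17 of 27 lower and 1 higher (5 higher without YT 3, none without STING_YT 16; median log2 change -1.01). Stanniocalcin 1 (STC1), a secreted glycoprotein, measured 133 and 201 CPM in STING_YT cells, against 1513 and 1416 CPM in YT cells (log2 change -3.15 ± 0.15, adjusted p = 3.2e-10). The EGFR ligand amphiregulin (AREG) measured 82.6 and 111 CPM in STING_YT cells, against 568 and 492 CPM in YT cells (log2 change -2.46 ± 0.17, adjusted p = 1.5e-08). Epiregulin (EREG), another EGFR ligand, measured 21.04 and 29.5 CPM in STING_YT cells, against 139 and 87.9 CPM in YT cells (log2 change -2.11 ± 0.22, adjusted p = 1.7e-06). The receptor EGFR was lower too, at 157 and 172 CPM in STING_YT cells, against 359 and 305 CPM in YT cells (log2 change -1.01 ± 0.10, adjusted p = 8.6e-07). The stress cytokine GDF15 and PLAT, the tissue plasminogen activator, changed by -1.41 and -1.55 on the log2 scale.

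Whether these genes reached the level of control cells differed from gene to gene. CXCL8 in STING_YT cells was not called against control cells (log2 difference 0.42 ± 0.40, adjusted p = 0.41), nor were NFKBIA (0.17 ± 0.09, adjusted p = 0.15) and TNFAIP3 (0.29 ± 0.18, adjusted p = 0.21). PTGS2 stayed above control cells, which measured 2.96 and 3.86 CPM (log2 difference 3.43 ± 0.23, adjusted p = 7.5e-09). AREG stayed above them as well (log2 difference 2.34 ± 0.17, adjusted p = 1.5e-08). Of the 15 most lowered genes, 8 were still above control cells, 4 were not called and 3 were below them, in a comparison where 21.4% of all genes were called higher and 23.0% lower. SOD2 was among those below, at 126 and 116 CPM in control cells (log2 difference -0.91 ± 0.15, adjusted p = 0.00016).

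Among raised genes KCNJ2, an inward rectifier potassium channel, came first and measured 42.4 and 35.8 CPM in STING_YT cells, against 3.91 and 1.44 CPM in YT cells (log2 change 3.53 ± 0.24, adjusted p = 1.3e-08). CLDN11, a claudin of tight junctions (chr3:170418865-170454733), measured 436 and 383 CPM in STING_YT cells, against 50.3 and 47.96 CPM in YT cells, 1251 and 1213 CPM in STING cells and 614 and 693 CPM in control cells. In cGAS_YT cells CLDN11 measured 394 and 382 CPM. The CLDN11 groups did not overlap, STING_YT cells had 8.34 times the YT mean (log2 change 3.03 ± 0.09, adjusted p = 1.2e-12), and they remained below control cells (log2 difference -0.67 ± 0.09, adjusted p = 9.5e-06). CDC42EP3, an effector of the small GTPase CDC42 that binds septins and actin, measured 243 and 202 CPM in STING_YT cells, against 37.8 and 37.7 CPM in YT cells and 290.3 and 319.9 CPM in control cells (log2 change 2.52 ± 0.09, adjusted p = 1.1e-11). The transcription cofactor LBH measured 240.3 and 225 CPM in STING_YT cells, against 38.1 and 45.5 CPM in YT cells and 224 and 231 CPM in control cells (log2 change 2.45 ± 0.09, adjusted p = 1.1e-11), and was not called against control cells (adjusted p = 0.8). PKDCC, a secreted kinase of extracellular proteins, measured 178 and 149.7 CPM in STING_YT cells, against 37.98 and 19.7 CPM in YT cells (log2 change 2.53 ± 0.18, adjusted p = 3e-08). Also among the 15 most raised were the interferon-stimulated genes IFI44L and IFI6, FGL2 (fibrinogen-like 2), TGFBR3 (betaglycan, a TGF-beta co-receptor), the homeobox gene HHEX, the sodium channel gene SCN2A and the monocarboxylate transporter gene SLC16A4.

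**Figure D2:**
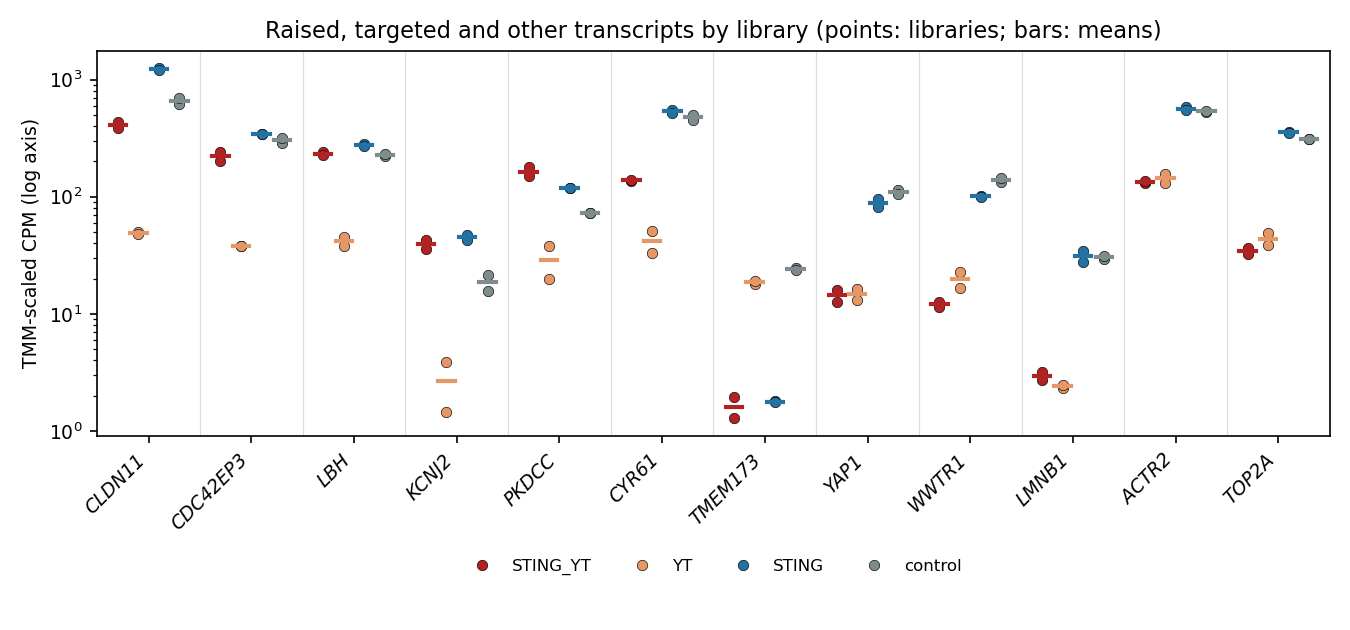
TMM-scaled CPM (log axis) of 5 strongly raised genes, CYR61, the targets TMEM173, YAP1 and WWTR1, and LMNB1, ACTR2 and TOP2A in each library of 4 groups, with points for libraries and bars for means of 2. CLDN11, CDC42EP3, LBH, KCNJ2 and PKDCC are lowest in the YT libraries, whereas LMNB1, ACTR2 and TOP2A are low in both STING_YT and YT libraries and high in both STING and control libraries.

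In cells with YAP and TAZ the same siRNA gave fewer calls: 853 genes were higher (6.14%) and 1231 lower (8.86%) in STING than in control cells, counts that were 280 to 502 higher and 596 to 815 lower when any 1 of the STING 13, STING 14, control 1 or control 2 libraries was left out. The STING and control libraries are not shared with STING_YT against YT. The gap in calls was smaller when each comparison was fitted on its own groups only. STING against control cells then had 1192 genes higher and 1508 lower. STING_YT against YT cells had 1378 higher and 1790 lower in such a fit. Genes lowered in both comparisons numbered 895, which is 35.8% of those lowered in STING_YT cells and 72.7% of those lowered in STING cells. Genes raised in both numbered 523, which is 23.5% and 61.3% of the lists of STING_YT and STING cells, and 58 were called in opposite directions. Across 13894 genes the 2 sets of log2 changes had a Pearson r of 0.55, a description across genes that are not independent. Some genes changed about equally in both settings, among them LRRC8A, a subunit of the volume-regulated anion channel that also carries cGAMP into cells: 38.03 and 42.5 CPM in STING_YT cells, against 123 and 120.4 CPM in YT cells, and 51.3 and 46.5 CPM in STING cells, against 123 and 133 CPM in control cells, with a difference of effects of -0.20 ± 0.13 (adjusted p = 0.39).

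A called difference of the 2 effects was found for 465 genes in the positive direction (3.35%) and 630 in the negative direction (4.53%). CXCL8 had the most negative difference among genes averaging 5 CPM or more (-6.5 ± 0.56 on the log2 scale, adjusted p = 3e-06); in the setting with YAP and TAZ, STING cells measured 1.05 and 1.07 CPM, against 0.727 and 1.65 CPM in control cells. CXCL1, CXCL5, IL24, IL1B, IL1A, SLC16A6 and CXCL3 came next, with differences of -5.59 to -4.01. CDC42EP3 had the most positive difference (2.35 ± 0.13, adjusted p = 3.1e-08), and RASL11B, KCNJ2, LBH, SHISA3, CLDN11, HHEX and SYNC followed with 2.29 to 1.94. RASL11B, a small GTPase of the RAS family, moved in opposite directions: 30.6 and 28.96 CPM in STING_YT cells, against 11.04 and 12.9 CPM in YT cells, but 9.4 and 10.1 CPM in STING cells, against 21.02 and 21.1 CPM in control cells. These counts depend on single libraries. Positive differences numbered 1329 without YT 3, 294 without control 1, 238 without STING 13, 251 without STING 14, 209 without STING_YT 15 and 264 without STING_YT 16. Negative differences numbered 1226 without YT 3, 345 without STING 13, 392 without STING 14, 341 without STING_YT 15 and 410 without STING_YT 16.

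**Figure D3:**
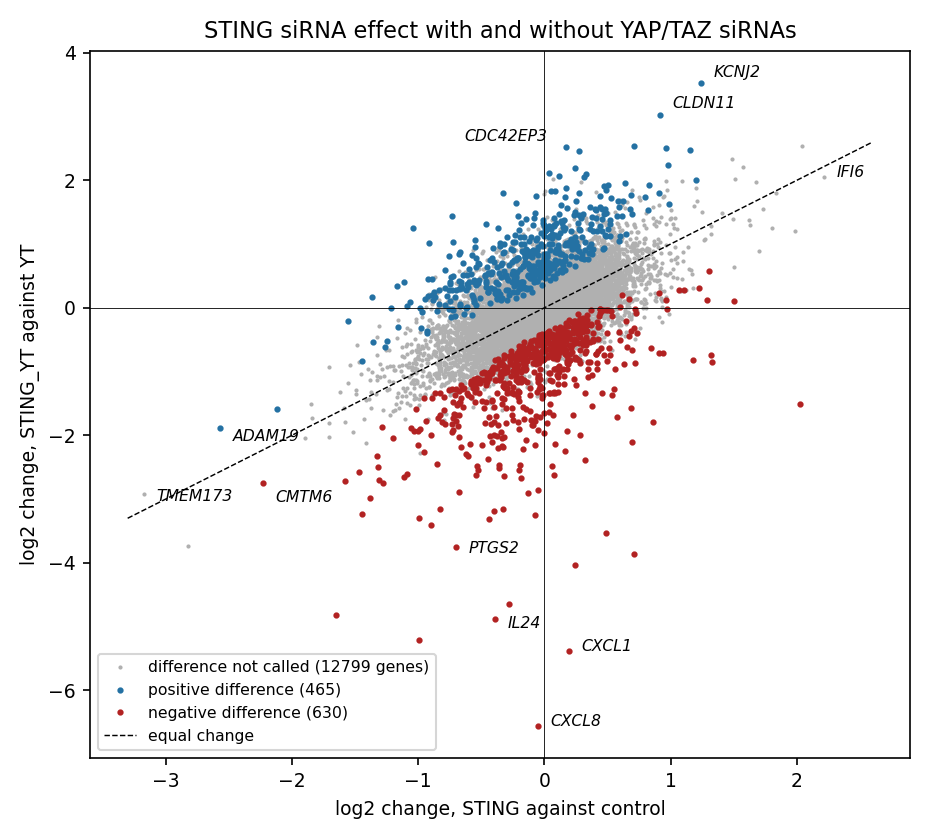
Log2 change of each of 13894 genes in STING_YT against YT cells (vertical axis) and in STING against control cells (horizontal axis), with blue points for a called positive and red points for a called negative difference of the 2 effects; the dashed line marks equal change. CXCL8, CXCL1, IL24 and PTGS2 lie far below the line, CLDN11 and KCNJ2 above it, and TMEM173 close to it.

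Few interferon-stimulated genes passed the test. Of 44 tested, 7 rose and 4 fell, with a median log2 change of 0.14; over all genes 16% rose and 18.0% fell, so the higher share is that of the background. IFI6, a mitochondrial antiviral protein, measured 711 and 752 CPM in STING_YT cells, against 147 and 208 CPM in YT cells, and 386 and 630.3 CPM in STING cells, against 102 and 109 CPM in control cells (log2 change in STING_YT 2.06 ± 0.21, adjusted p = 1.2e-06). IFI44L, IFIT1, IFI27, HERC6, PARP9 and TRIM22 rose as well, IFIT1 to 22.4 and 30.99 CPM in STING_YT cells, against 8.35 and 8.75 CPM in YT cells. IRF1, a transcription factor that NF-kB also induces, fell to 151 and 160.1 CPM in STING_YT cells, against 333 and 377 CPM in YT cells (log2 change -1.18 ± 0.08, adjusted p = 1.7e-08), and PARP14, USP18 and GBP1 fell with it. MX1 overlapped between the groups, with 31.04 and 50.96 CPM in STING_YT cells, against 33.7 and 42.5 CPM in YT cells.

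Among MHC class I antigen presentation genes 9 of 16 were lower and none higher (median log2 change -0.55). TAP2, a subunit of the peptide transporter, measured 65.7 and 73.1 CPM in STING_YT cells, against 172 and 153 CPM in YT cells (log2 change -1.22 ± 0.15, adjusted p = 1.5e-05). Of 17 genes of the STING and DNA sensing pathway, 7 fell and 1, IFI16, rose (8 fell and 2 rose without YT 4); TBK1 and IRF3 did not pass the test, and IKBKE, the kinase related to TBK1, fell (log2 change -1.31 ± 0.15, adjusted p = 4.7e-06).

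YAP/TAZ target genes split, with 11 of 22 higher and 7 lower in STING_YT than in YT cells (median log2 change 0.35). CYR61 (CCN1), a matricellular protein, measured 137 and 139 CPM in STING_YT cells, against 50.6 and 32.8 CPM in YT cells, 547 and 523 CPM in STING cells and 502 and 454 CPM in control cells. CYR61 thus rose (log2 change 1.74 ± 0.13, adjusted p = 5e-08) but stayed well under control cells, while its relative CTGF (CCN2) fell, at 50.3 and 56.6 CPM in STING_YT cells, against 125 and 76.4 CPM in YT cells (log2 change -0.86 ± 0.15, adjusted p = 0.00029; -0.51 without YT 3). NT5E, the ecto-enzyme CD73, rose to 150.01 and 148 CPM in STING_YT cells, against 64.9 and 43.3 CPM in YT cells (log2 change 1.47 ± 0.14, adjusted p = 8.7e-07). ANKRD1, a muscle ankyrin repeat protein, was at 2.11 and 1.27 CPM in STING_YT cells, against 0.475 and 0.978 CPM in YT cells and 14.9 and 12.2 CPM in control cells; its rise (log2 change 0.64 ± 0.21, adjusted p = 0.029) lost its call when some single libraries were left out.

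Contractile and focal adhesion genes had 13 of 25 members higher and 3 lower (median log2 change 0.26), where the higher count was 4 without STING_YT 15 and 6 when only the STING_YT and YT libraries were fitted. FLNC, a filamin that crosslinks actin, measured 111 and 103 CPM in STING_YT cells, against 63.1 and 52.02 CPM in YT cells (log2 change 0.89 ± 0.10, adjusted p = 2.4e-06). ACTG2, a smooth muscle actin, measured 299 and 269.6 CPM in STING_YT cells, against 160.1 and 153 CPM in YT cells (log2 change 0.86 ± 0.09, adjusted p = 1.2e-06). In STING against control cells none of the 25 rose and 11 fell, where 6.14% of all genes rose and 8.86% fell. For 10 of the 25 the difference of the effects was called positive, against 3.35% of all genes. ACTA2, the actin of myofibroblasts, measured 1160.2 and 1014 CPM in STING_YT cells, against 790.1 and 934 CPM in YT cells, and 819 and 817 CPM in STING cells, against 1753 and 1915 CPM in control cells. SRF, the transcription factor of many contractile genes, fell in both (log2 change in STING_YT -0.82 ± 0.11, adjusted p = 2.4e-05).

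Few mitosis genes passed the test between STING_YT and YT cells, where 16% of all genes rose and 18.0% fell. Replication genes rose about as often as all genes and fell less often. Of 30 mitosis genes 2 rose and 2 fell (4 rose and 3 fell without YT 3; 1 rose and 1 fell without YT 4 or without STING_YT 15; none rose and 1 fell in a fit of only these groups), and of 29 replication genes 5 rose and 1 fell (3 rose without STING_YT 15; 3 rose and 3 fell without YT 3), although STING_YT cells were below control cells for all 30 mitosis genes. TOP2A, the mitotic topoisomerase, measured 36.7 and 32.6 CPM in STING_YT cells, against 38.8 and 48.9 CPM in YT cells and 309 and 309 CPM in control cells, and its small fall (log2 change -0.32 ± 0.11, adjusted p = 0.039) lost its call without either STING_YT library and without YT 4. PCNA, the sliding clamp of DNA polymerase, measured 72.1 and 75.8 CPM in STING_YT cells, against 49.5 and 33.2 CPM in YT cells (log2 change 0.85 ± 0.13, adjusted p = 0.00013). The nuclear envelope gene LMNB1 was at 3.16 and 2.74 CPM in STING_YT cells, against 2.32 and 2.47 CPM in YT cells and 29.6 and 31.4 CPM in control cells (log2 change -0.17 to 0.61 as a 95% interval, adjusted p = 0.39). ACTR2, a subunit of the Arp2/3 complex, was at 132 and 137 CPM in STING_YT cells, against 158 and 130.1 CPM in YT cells and 531 and 540.5 CPM in control cells (95% interval -0.28 to 0.10, adjusted p = 0.46); without YT 4 it was called lower (log2 change -0.23). CDKN1A, the CDK inhibitor p21, was not called (95% interval -0.16 to 0.29, adjusted p = 0.67).

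Cholesterol and fatty acid synthesis was the metabolic group with the most lowered members, 25 of 33, with 1 higher (median log2 change -0.65). INSIG1, which retains the sterol sensor in the endoplasmic reticulum, measured 35.7 and 39.4 CPM in STING_YT cells, against 110.04 and 93.7 CPM in YT cells (log2 change -1.41 ± 0.11, adjusted p = 4.7e-08). HMGCS1 measured 52.7 and 51.3 CPM in STING_YT cells, against 91.5 and 110.3 CPM in YT cells (log2 change -0.94 ± 0.09, adjusted p = 7.4e-07). Without YAP and TAZ siRNAs 15 of the 33 fell and none rose, where 8.86% of all genes fell and 6.14% rose. A called negative difference of the effects was found for 5 of the 33, against 4.53% of all genes. SREBF1, a transcription factor of lipid genes, was the member that rose (log2 change 0.71 ± 0.24, adjusted p = 0.03), but no member rose without YT 4, STING_YT 15 or STING_YT 16, with a constant prior, in a fit of only these groups or by edgeR, and 2 rose without YT 3.

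The stress list divided by function, 11 of 25 higher and 11 lower. Chaperones of the endoplasmic reticulum fell: HSPA5 (BiP) measured 514 and 509 CPM in STING_YT cells, against 1216 and 1362 CPM in YT cells (log2 change -1.33 ± 0.08, adjusted p = 8e-09). SDF2L1, a partner of BiP, measured 31.3 and 33.7 CPM in STING_YT cells, against 114 and 158 CPM in YT cells (log2 change -2.02 ± 0.13, adjusted p = 1.2e-08). HYOU1, MANF, CRELD2, PDIA4 and HSP90B1, which also serve protein folding there, were lower as well. Genes of the amino acid response rose: TRIB3, a pseudokinase induced by ATF4, measured 175 and 179 CPM in STING_YT cells, against 63.7 and 69 CPM in YT cells (log2 change 1.405 ± 0.10, adjusted p = 2.2e-08). PSAT1 (serine synthesis), DDIT3 (CHOP), SESN2, PHGDH, SLC7A11 and ATF4 itself rose too, PSAT1 by 1.36 ± 0.12 and DDIT3 by 1.03 ± 0.09 on the log2 scale, whereas ASNS did not pass the test and CHAC1 fell. This division into chaperones and amino acid genes was made after their values were seen.

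**Figure D4:**
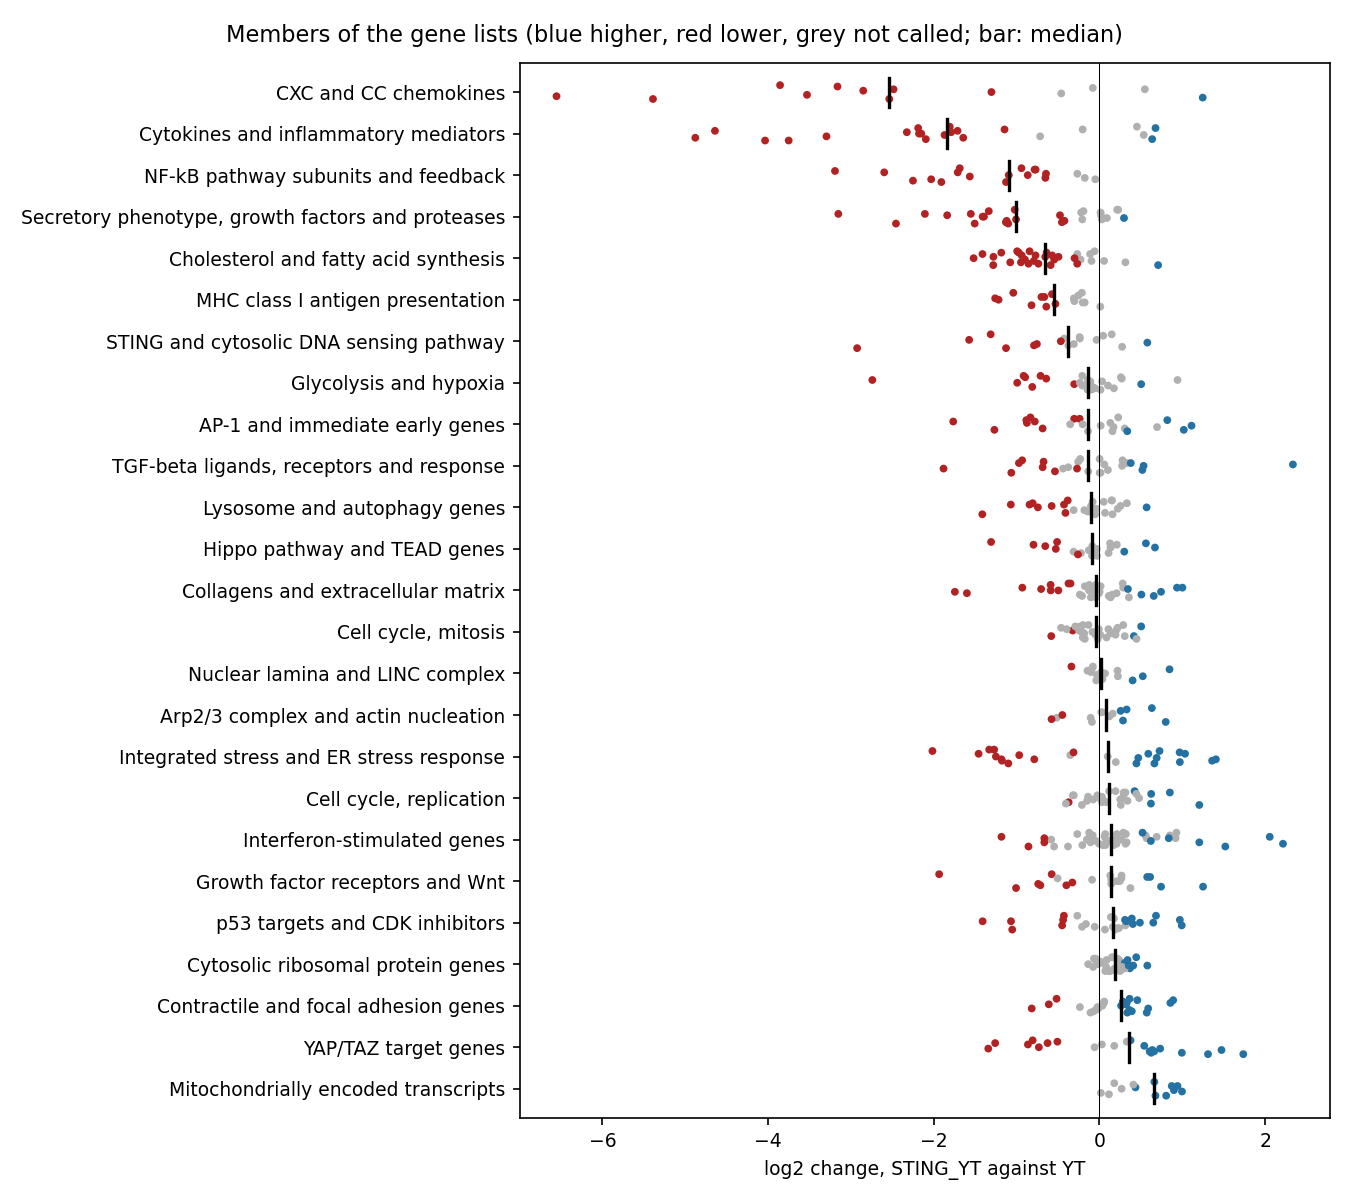
Log2 change in STING_YT against YT cells of each tested member of 25 gene lists, blue for called higher, red for called lower and grey for not called, with a black bar at each list's median; lists are ordered from the lowest median (top) to the highest. Chemokines, cytokines, NF-kB genes and secreted factors have the lowest medians, from -2.54 to -1.01, and transcripts of the mitochondrial genome the highest, 0.66.

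Of 13 transcripts of the mitochondrial genome 8 rose and none fell (median log2 change 0.66), and 5 rose without STING_YT 15. MT-ND3 measured 5494 and 5059 CPM in STING_YT cells, against 2829 and 2468 CPM in YT cells (log2 change 0.996 ± 0.15, adjusted p = 0.00011). Over all genes 16% rose and 18.0% fell, and the list counts of this paragraph are to be read beside these shares. Of 36 ribosomal protein genes 8 rose and none fell, and the count was 3 without STING_YT 15 and 15 without YT 4. Lysosome and autophagy genes had 9 of 27 members lower and 1 higher (4 higher without YT 3, 2 without YT 4). SLC2A3, the glucose transporter GLUT3, fell to 43.9 and 42.5 CPM in STING_YT cells, against 278 and 312 CPM in YT cells (log2 change -2.74 ± 0.08, adjusted p = 1.2e-12), on a list of 26 glycolysis and hypoxia genes with 8 lower and 1 higher (11 lower and 3 higher without YT 3).

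An siRNA can also lower transcripts other than its target, most often through short matches to their 3′ UTRs. Since no label gives the guide sequences, 3′ UTRs of 9596 tested genes (GENCODE release 29, GRCh38, mean of at least 5 CPM) were read for heptamers whose carriers were lower, after adjustment for UTR length and GC content. In STING against control cells, which share no library with the comparison described here, GTCATAT ranked first of 15418 heptamers. It is also 1 of the 1595 of 16384 possible heptamers that occur in the TMEM173 transcript (9.74%), at position 817 of that transcript, ahead of its 3′ UTR. In STING_YT against YT cells it ranked second, behind TATTTAT. The overlapping heptamers CTGGATA and TGGATAA also occur in the TMEM173 transcript. They ranked 2 and 3 in STING against control cells, and 3 and 5 in STING_YT against YT cells. Their adjusted log2 differences in STING_YT against YT cells were -0.158 and -0.138, against -0.165 for GTCATAT. Only GTCATAT, called the heptamer below, was looked up in named genes. Sites of 5 lowered genes and of TMEM173 follow, 29 bases each, 5′ to 3′ on the transcript, with the heptamer in capitals; they are shown because CMTM6, ADAM19, DIO2 and SLC2A3 fell in both settings, while TNFAIP3 was called only in STING_YT cells.
CMTM6: tcagctggcctGTCATATaaaacatactg
ADAM19: tggccattgggGTCATATgtttatttttc
DIO2: acaatatatttGTCATATgctcctagaga
SLC2A3: ttctcgtaaaaGTCATATacctatataat
TNFAIP3: ttgtggttgctGTCATATttgctctagaa
TMEM173: gggctggcatgGTCATATtacatcggata
The heptamer lies in the 3′ UTR at chr3:32481917-32481923, minus strand in CMTM6, chr5:157479954-157479960, minus strand in ADAM19, chr14:80201806-80201812, minus strand in DIO2, chr12:7920576-7920582, minus strand in SLC2A3 and chr6:137882848-137882854, plus strand in TNFAIP3.

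The 844 genes with the heptamer were lower in STING_YT cells more often than the others: 285 (33.8%) were called lower and 127 (15%) higher, against 21.1% lower and 17.9% higher of the 8752 genes without it. Their median log2 change was -0.12, against -0.0001 for genes without it. Among the shortest 3′ UTRs, with genes cut into 3 equal bins by UTR length, 41.7% of 48 carriers were lower, against 20.1% of 3151 others, in the middle bin 29.8% against 20.4%, and in the longest bin 34.2% against 23.2%. In cGAS_YT against YT cells, which share the YT libraries, 23.3% of the carriers and 24.2% of the others were lower (20.2% of all tested genes), with a median of 0.06 for the carriers. CMTM6, a stabiliser of PD-L1 at the cell surface, measured 32.4 and 37.5 CPM in STING_YT cells, against 241 and 236 CPM in YT cells, 70.8 and 56.9 CPM in STING cells, 298 and 305 CPM in control cells and 269 and 253 CPM in cGAS_YT cells (log2 change in STING_YT -2.74 ± 0.10, adjusted p = 1.4e-11). ADAM19, a membrane metalloprotease, measured 87.2 and 89.8 CPM in STING_YT cells, against 329.9 and 328 CPM in YT cells, and 57.4 and 59.4 CPM in STING cells, against 361 and 340.2 CPM in control cells (log2 change in STING_YT -1.88 ± 0.07, adjusted p = 4.8e-11). CMTM6 and ADAM19 were thus low wherever STING siRNA was used. Among genes lowered at least 2-fold, 71 of 357 with a 3′ UTR (19.9%) carried the heptamer, against 8.80% of all 9596. CXCL8, CXCL1, IL1B, IL1A, IL24, PTGS2 and NFKBIA did not carry it. Other lowered inflammatory and secretory genes did: TNFAIP3, EREG and TIMP3 held 1 copy each. SOD2, which was outside the 9596 genes, held 2 copies. Whether the heptamer is part of a guide, or how the mark 4x in the titles bears on it, was not tested.

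**Figure D5:**
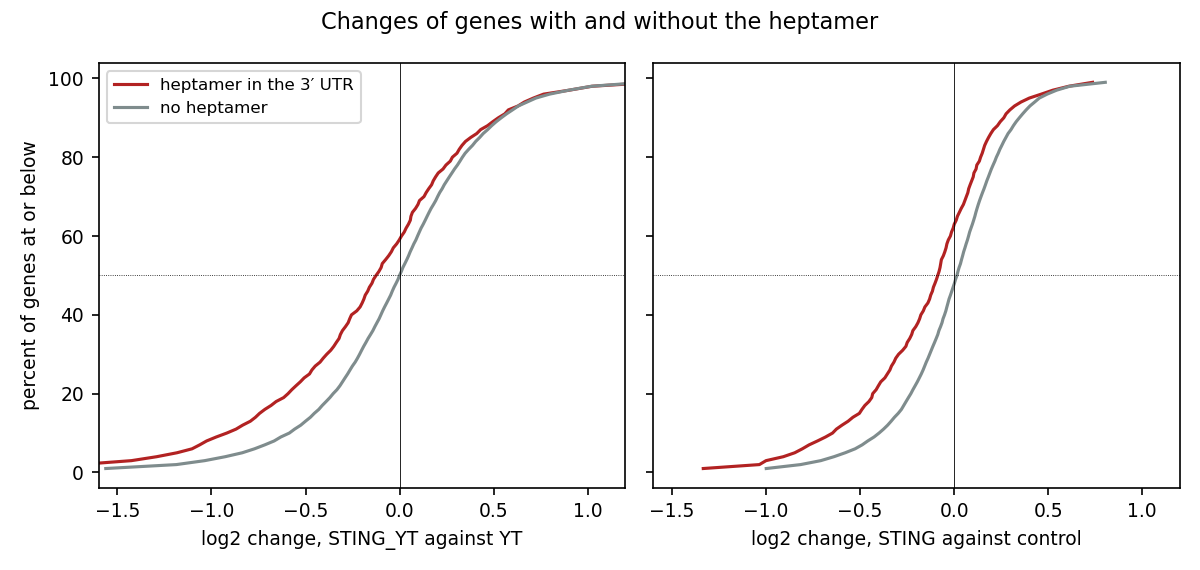
Percent of genes at or below each log2 change for the 844 genes with the heptamer in the 3′ UTR (red) and the 8752 without it (grey), in STING_YT against YT cells (left) and STING against control cells (right). The red curve is shifted to lower values in both panels, with medians of -0.12 and -0.09, against -0.0001 and 0.02 for the grey curve. The heptamer was picked by its rank in STING against control cells, so the shift in the right panel follows from that choice. Only the left panel rests on libraries that were not used to pick it.

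STING_YT and cGAS_YT cells differed directly in 2384 genes that were higher (17.2%; 1565 without STING_YT 15) and 2736 that were lower (19.7%) in STING_YT cells. Of 13 chemokines 3 were higher and 4 lower in STING_YT than in cGAS_YT cells, and of 19 NF-kB genes 4 were higher and 3 lower. Relative to the shared YT cells, 9 of the 13 chemokines were lower and 4 higher in cGAS_YT cells. Of the 19 NF-kB genes 17 were lower there and none higher. CXCL8 measured 1.67 and 2.08 CPM in STING_YT cells, against 4.203 and 3.06 CPM in cGAS_YT cells (log2 difference -0.68 ± 0.40, adjusted p = 0.2), and NFKBIA 211 and 243 CPM in STING_YT cells, against 224 and 186 CPM in cGAS_YT cells (log2 difference 0.15 ± 0.09, adjusted p = 0.24). Interferon-stimulated genes separated them, with 40 of 44 lower and 2 higher in STING_YT cells. Against the shared YT cells, 39 of the 44 were higher and 2 lower in cGAS_YT cells (median log2 change 1.70). In STING_YT cells 7 were higher and 4 lower than in YT cells (median 0.14). MX1, an antiviral GTPase, measured 31.04 and 50.96 CPM in STING_YT cells, against 780.4 and 246 CPM in cGAS_YT cells (log2 difference -3.43 ± 0.41, adjusted p = 7.3e-06). Cholesterol and fatty acid genes separated them as well, with 30 of 33 lower in STING_YT cells and none higher. Against YT cells, 29 were higher and 1 lower in cGAS_YT cells, while 1 was higher and 25 lower in STING_YT cells. Of 36 ribosomal protein genes 28 were higher in STING_YT cells and none lower, and of 22 YAP/TAZ targets 12 were lower and 1 higher. Relative to YT cells, 15 of the 22 YAP/TAZ targets were higher and 5 lower in cGAS_YT cells.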

How the data were processed

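Libraries were made with QuantSeq, a kit that reads the 3′ ends of mRNA, per the labels' protocols. Among tools, STAR 2.5.3a, edgeR and featureCounts are listed in the submitters' processing notes, with hg38 as the build. Per the file's layout and values, the authors deposited 1 signal value per gene and library, which is CPM scaled by TMM factors; whole reads could be recovered for 100% of values within 0.01 reads. No source used here states the strand setting or the annotation, so overlapping and antisense genes are uncertain. Of 13937 symbols 12571 (90.2%) were found in GENCODE release 29.

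The 13894 genes that reached 1 CPM in 2 or more libraries were tested with limma 3.58.1 on log2(CPM + 1), in 1 fit of 6 groups over all 12 libraries with 6 residual degrees of freedom, and p-values were adjusted over all tested genes by Benjamini-Hochberg at 0.05. Fold changes are on the log2(CPM + 1) scale, which understates changes of low genes. The design was written for CPM; the signal values are CPM with TMM scaling, and the test was kept. Alternatives were pseudocounts of 0.25 and 4, other filters, a constant prior, a fit of only the groups compared, median-of-ratios rescaling, leaving out each library, and edgeR 4.0.16 and DESeq2 1.42.0 on recovered reads. The limma procedure and the heptamer ranking were tested on simulated data. Named genes are fixed genes of the pathways, the 15 most raised and 15 most lowered genes with non-overlapping groups and a mean of at least 5 CPM, the 8 most positive and 8 most negative differences of effect, the members with the smallest p on each list (at most 5), and carriers of the heptamer; other genes named in the text were chosen after their values were seen. The members and lists were chosen with earlier results of these data known. Promoters come from RefSeq on GRCh38.p14.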

Additional observations from a re-analysis of the deposited data

Results flagged for a closer look

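The effect of STING siRNA differed between cells with and without the YAP and TAZ siRNAs for 37 of the 55 genes that were fixed, most raised, most lowered or most different, 20 in the negative and 17 in the positive direction (limma on the difference of the effects, adjusted p under 0.05). Values are differences on the log2 scale, the change in STING_YT against YT cells minus the change in STING against control cells. Among chemokines the difference was called for CXCL8 (-6.50), CXCL1 (-5.59), CXCL5 (-4.57), CXCL3 (-4.01) and CXCL2 (-2.55). Among cytokines and inflammatory enzymes it was called for IL24 (-4.49), IL1B (-4.36), IL1A (-4.28), PTGS2 (-3.05), TNFSF15 (-2.51) and SOD2 (-2.30), and among NF-kB inhibitors for TNFAIP3 (-2.79) and NFKBIA (-1.71). Negative differences were also called for SLC16A6 (-4.21), EFNA1 (-3.17), C11orf96 (-3.16), KYNU (-2.87), EREG (-2.80), AREG (-1.61) and CMTM6 (-0.51). SLC16A6 is a monocarboxylate transporter gene, KYNU encodes kynureninase and EFNA1 a ligand of Eph receptors.

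Positive differences were called for DIO2 (0.53), ADAM19 (0.68), RMI2 (1.26), SLC16A4 (1.32), SCN2A (1.54), CYR61 (1.57), RNF112 (1.73), FGL2 (1.78), PKDCC (1.83), SYNC (1.94), HHEX (2.07), CLDN11 (2.11), SHISA3 (2.13), LBH (2.18), KCNJ2 (2.28), RASL11B (2.29) and CDC42EP3 (2.35). DIO2 and ADAM19 fell in both settings, by less in cells with the YAP and TAZ siRNAs, and CMTM6 fell in both, by more in those cells. Many of these genes were chosen for a large change or a large difference, so their number is no measure of how often effects differ; over all genes it was 3.35% in the positive and 4.53% in the negative direction.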

How the results depend on the processing

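No call of the 170 named genes turned round under any of up to 13 alternatives, while IL6, YAP1, CDKN1A, MX1, ACTR2 and KRT18, which were not called, changed sign when some single libraries were left out: of 2209 values 2161 had the same call, 42 lost it and 6 gained it, all within 19 genes. Genes higher in STING_YT than in YT cells numbered 1378 when only these groups were fitted, and 1300 to 2626 when 1 library was left out (1300 without STING_YT 15, 1427 without STING_YT 16); those lower numbered 1715 to 2689. The cause was not tested. edgeR called 4594 genes and DESeq2 4463 in all, against 4731. The difference of effects had 209 to 1329 positive and 341 to 1226 negative calls with 1 library left out, and 392 negative calls with a constant prior, where the cause was not tested. STING against control had 280 to 502 higher and 596 to 815 lower, STING_YT against cGAS_YT 1565 to 1878 higher and 1965 to 2192 lower, and STING_YT against STING 1744 to 1937 higher and 1894 to 2146 lower. Rescaling by the median of ratios moved the median log2 change of all genes to 0.004, against 0.011. An arm left with 1 library takes its spread from the remaining groups. No paired analysis was possible because each replicate number occurs in 1 library only. Genes under about 1 CPM are not resolved at this depth, and 2 libraries per group limit each value.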

Other observations

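For receptor, Wnt and matrix genes the shares called were read against all genes, of which 16% were higher and 18.0% lower in STING_YT than in YT cells. Of 21 growth factor receptor and Wnt genes 7 fell and 4 rose (4 fell without STING_YT 15; 7 rose without YT 3 and 2 without YT 4, STING_YT 15 or STING_YT 16). WNT5A, a non-canonical Wnt ligand, measured 119.98 and 116 CPM in STING_YT cells, against 502 and 411 CPM in YT cells (log2 change -1.93 ± 0.09, adjusted p = 4.2e-10). SFRP1, a secreted Wnt antagonist, measured 714 and 741 CPM in STING_YT cells, against 308 and 303 CPM in YT cells (log2 change 1.25 ± 0.08, adjusted p = 4.8e-09). Both moved the same way in STING against control cells, by -1.002 for WNT5A and 1.03 for SFRP1 on the log2 scale. The 3′ UTR of WNT5A holds 2 copies of the heptamer GTCATAT.

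Of 36 collagen and matrix genes 9 fell and 6 rose (11 rose without YT 3, and 14 fell without YT 4). COL7A1, the anchoring fibril collagen, measured 41.5 and 43.5 CPM in STING_YT cells, against 142 and 147 CPM in YT cells (log2 change -1.75 ± 0.13, adjusted p = 2.8e-08). THBS1, a matricellular protein that activates TGF-beta, measured 289.8 and 280.4 CPM in STING_YT cells, against 157 and 129 CPM in YT cells (log2 change 1.001 ± 0.10, adjusted p = 7.7e-07). Of 25 TGF-beta genes 8 fell and 4 rose, with 7 rising without YT 3, 1 without STING_YT 15 and 2 without STING_YT 16. TGFB1 measured 16.4 and 20.02 CPM in STING_YT cells, against 39.1 and 38.8 CPM in YT cells (log2 change -1.06 ± 0.13, adjusted p = 7.4e-06).

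Among immediate early genes 9 of 23 fell and 4 rose. IER3, an NF-kB and stress target, measured 401 and 444 CPM in STING_YT cells, against 1258 and 1642 CPM in YT cells (log2 change -1.77 ± 0.11, adjusted p = 3.8e-09). EGR1, a transcription factor induced by serum, measured 141 and 172 CPM in STING_YT cells, against 81.1 and 71.8 CPM in YT cells (log2 change 1.02 ± 0.13, adjusted p = 1.1e-05). Of 28 p53 targets and CDK inhibitors 9 rose and 6 fell; XPC, a DNA repair protein, measured 115 and 115 CPM in STING_YT cells, against 75.5 and 70.4 CPM in YT cells (log2 change 0.65 ± 0.08, adjusted p = 1.6e-05). Of 21 Hippo pathway genes 6 fell and 3 rose (6 rose without YT 3), and NF2 (merlin), an upstream regulator of the pathway, measured 21.2 and 26.98 CPM in STING_YT cells, against 63.2 and 58.4 CPM in YT cells (log2 change -1.31 ± 0.12, adjusted p = 3.9e-07). Of 16 nuclear lamina and LINC genes 3 rose and 1 fell (2 rose without STING_YT 15 and 1 without STING_YT 16), and of 14 Arp2/3 and actin nucleation genes 5 rose and 2 fell, 3 rising without STING_YT 15.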
